A study of Mus musculus with 109 samples.

Results

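Long noncoding RNA genes known from neurons and from the cell nucleus, 7 of the 15973 genes in the table, were followed across all 109 cells. They were taken by symbol, whatever their level: Malat1, Neat1, Miat, Meg3, Rian, Mirg and Snhg11. The cells came from cerebella of C57BL/6 mice at postnatal day 7 (P7), enriched for granule cell progenitors (GCPs) on a Percoll gradient, and the labels give no genotype, treatment or animal. Each cell was caught on a C1 Fluidigm chip and gave 1 Smart-seq library, in which cDNA copied from a single cell is amplified and sequenced. The number that ends each sample's title divides the cells into 6 library groups of 18 or 19, and the library group, not the cell, was the unit of every test. There were 2 comparisons. The first set cells with at least 100 CPM (the count scaled to a cell total of 1000000) of Mki67, a proliferation marker, against cells with less than 10 CPM. The second, within the latter, set cells with at least 100 CPM of Rbfox3, which encodes the neuronal nuclear antigen NeuN, against cells with less than 10 CPM.

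Long noncoding RNAs are transcribed and mostly spliced like messenger RNAs but encode no known large protein, and many stay in the nucleus. Malat1 gathers in nuclear speckles, where splicing factors are stored, Neat1 is the scaffold of paraspeckles, and Miat (also called Gomafu) forms its own nuclear spots in neurons and carries copies of a short motif that resembles the intron branch point and binds splicing factor SF1. Meg3, Rian and Mirg lie in a row in the imprinted Dlk1-Dio3 domain, are made from the maternal chromosome and host small nucleolar RNAs and microRNAs, while Snhg11 is a small nucleolar RNA host gene studied mainly in neurons.

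In the GENCODE annotation of GRCm38, the build to which the authors aligned, Malat1 lies at chr19:5795690-5802672 and Neat1 at chr19:5824708-5845478, both on the minus strand. Miat lies at chr5:112213228-112229395 on the minus strand. On the plus strand of chromosome 12 follow Meg3 at chr12:109541001-109571726, Rian at chr12:109603940-109661716 and Mirg at chr12:109729764-109749460. Snhg11 lies at chr2:158375638-158386145 on the plus strand and is typed protein_coding in that annotation. Antisense genes overlap exons of Meg3 (Gm26906), Miat (Gm26953) and Malat1 (Gm37376), and none of these 3 is in the table. Since the strand setting of the counting was not given, reads from either strand cannot be told apart there.

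The following sequences show features of these RNAs. The first is the stretch near the end of Malat1 at chr19:5795918-5796079, written along its transcript, in which the capitals mark an uninterrupted run of 12 A. Malat1 is known to be cut after this A-rich tract and to end in it instead of a poly(A) tail, which matters for libraries primed with oligo(dT), as Smart-seq ones are. A run of this length was not particular to Malat1, since the longest runs of A were 16 in Meg3 and 15 in Rian.
Malat1: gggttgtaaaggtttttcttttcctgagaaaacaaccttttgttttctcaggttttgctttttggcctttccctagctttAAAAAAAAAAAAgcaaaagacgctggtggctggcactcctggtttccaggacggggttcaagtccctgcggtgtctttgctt
The second is the 200-base exonic stretch of Miat at chr5:112217319-112217518 that held the most copies of TACTAAC, the SF1-binding motif, which is in capitals and occurs here 3 times.
Miat: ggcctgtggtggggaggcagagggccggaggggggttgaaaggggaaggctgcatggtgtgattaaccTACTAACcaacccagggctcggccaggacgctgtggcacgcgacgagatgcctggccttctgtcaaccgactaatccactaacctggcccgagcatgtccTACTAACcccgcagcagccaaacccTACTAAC

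The whole 9163-base Miat transcript held TACTAAC 6 times on its own strand. Of the 10155 long noncoding RNA genes of the annotation, 406 (4.0%) held it at all and 2 (0.0197%), Miat among them, held it at least 6 times. Of the 139 with a transcript of 5000 bases or more, 28 (20.1%) held it at all and 1, Miat itself, at least 6 times. The other members held it at most 1 time in any transcript.

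The third kind is the microRNAs that lie inside the 3 imprinted genes on their strand: 3 mature ones in Meg3, 6 in Rian and 26 in Mirg by RefSeq (GRCm38.p6). They are shown for at least 1 of each host, with the seed (bases 2 to 8) in capitals. The pair with a common seed, miR-453 and miR-496a-5p, both lie in Mirg, where the 26 microRNAs have 25 different seeds.
miR-770-5p (Meg3): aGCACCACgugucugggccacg
miR-370-3p (Rian): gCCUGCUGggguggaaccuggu
miR-134-5p (Mirg): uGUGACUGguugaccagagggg
miR-369-3p (Mirg): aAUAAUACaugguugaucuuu
miR-453 (Mirg): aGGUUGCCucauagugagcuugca
miR-496a-5p (Mirg): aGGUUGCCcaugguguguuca

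Mature microRNAs carry no poly(A) tail and were not measured in these libraries, so the values below are those of the host transcripts.

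Cells held 15071 to 8616017 counts and a median of 4312 detected genes. One cell of library group 2 had 15071 counts, and 2 cells, with 13533 and 12684 detected genes, stood apart from the others, which had at most 6420. Granule lineage markers were present in most cells: at least 2 of 8 granule lineage markers reached 50 CPM in 31 of 32 Mki67-high and 73 of 75 Mki67-low cells. Yet 8 cells carried at least 2 of 4 markers of GABAergic interneurons (Gad1, Gad2, Slc32a1, Pax2) at 50 CPM, and 5 carried at least 5 of 8 astroglial markers. At least 2 of 6 oligodendrocyte markers reached that level in 13 cells, some of them the same cells. In 3 Mki67-high cells at least 2 of 4 microglial markers did. All 8 cells with GABAergic markers also passed 50 CPM of Dcx and Zic1, which are both among the granule lineage markers. The granule lineage count therefore does not identify granule cells.

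Malat1 was present in every cell, Miat in nearly all cells but over a very wide range, and the other 5 were at 0 in most cells. Of these, Meg3, Rian, Mirg and Neat1 were high in 1 to 9 cells (at least 100 CPM), and Snhg11 in none. Malat1 was detected, with at least 1 count, in 109 of 109 cells, and Miat in 100 (91.7%, 95% Wilson interval 85.0 to 95.6). Meg3 followed with 46 cells (42.2%, 33.4 to 51.6) and Rian with 20 (18.3%, 12.2 to 26.6). Neat1 and Snhg11 were detected in 7 cells each (6.42%, 3.15 to 12.7) and Mirg in 4 (3.67%, 1.44 to 9.06). These intervals take every cell as an independent draw. They leave out the spread between library groups and may be too narrow. The reads carry no molecular identifiers.

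**Figure D1:**
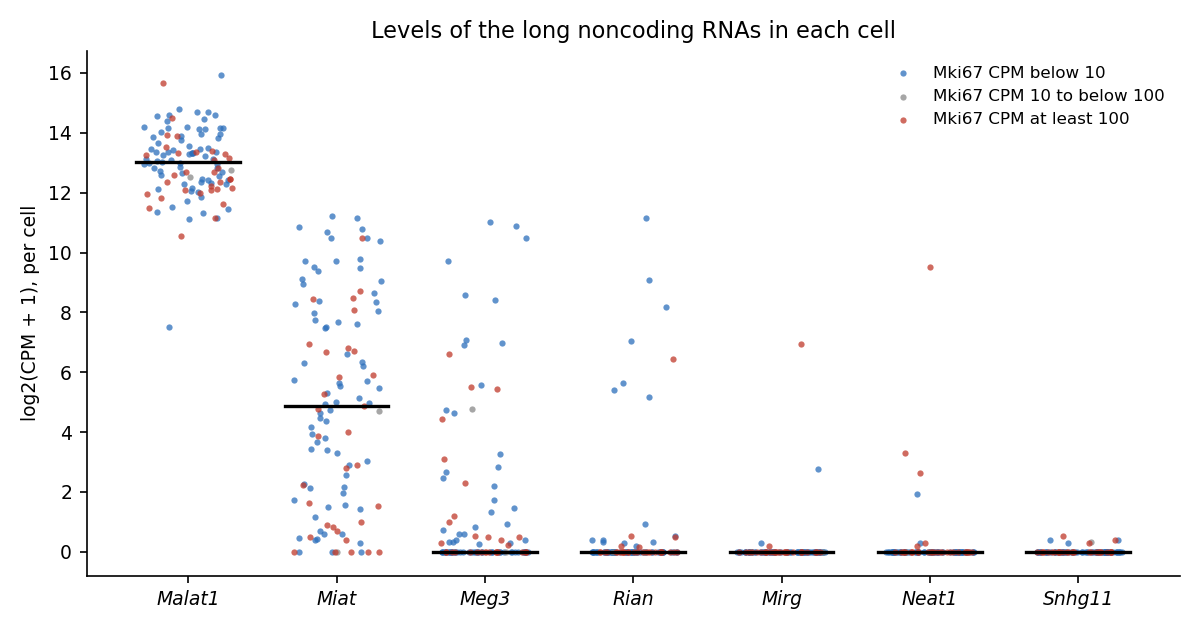
Level of each of the 7 RNAs in each of the 109 cells, as log2(CPM + 1) on the vertical axis; every point is 1 cell, coloured by its Mki67 class, and the bar is the median over cells. All points of Malat1 lie above 7, those of Miat spread from 0 to above 11, and the medians of the other 5 RNAs lie at 0, with single cells of Meg3, Rian, Mirg and Neat1 far above it and none of Snhg11.

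Per kilobase of exon (the union of annotated exons, an estimate of what was counted), the mean level over cells was 1521 CPM per kb for Malat1, 27.3 for Miat, 3.92 for Meg3, 1.75 for Rian, 0.330 for Neat1, 0.163 for Mirg and 0.00223 for Snhg11. Only the first step of this order was clear of the spread between library groups. Summed over a library group, Malat1 ranged from 831 to 1962 CPM per kb and Miat from 11.4 to 35.9, without overlap. Meg3 ranged from 1.21 to 13.5 CPM per kb and overlapped Miat, and Rian, Neat1 and Mirg each ran down to 0 in at least 1 library group, so that their order among themselves was not settled.

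Malat1, the speckle RNA, had the highest mean CPM of all 15973 genes. Its level per cell ran from 179.8 to 63014 CPM with a median of 8341, and it took 1.04% of all counts in the table. The lowest cell, in library group 2, held 582 Malat1 counts among 3236159, and the next lowest was at 1507 CPM, in library group 1. The highest cell, in library group 6, was 1 of the 5 cells with astroglial markers, with Slc1a3, a glial glutamate transporter, at 3255 CPM. The other 4 cells of that kind had 26409, 23080, 4582 and 3643 CPM of Malat1. The second highest cell, at 51640 CPM in library group 5, was an Mki67-high cell in which 17.9% of all counts were mitochondrial, against a median of 1.90% over all cells.

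By library group, median Malat1 was 7451, 6421 and 5244 CPM in groups 1 to 3 and 15913, 11357 and 10871 CPM in groups 4 to 6. The 2 sets of library groups did not overlap, a split seen in the data and therefore not tested. The mitochondrial share of the counts and the depth split the same way. The median mitochondrial share was 1.20 to 1.52% in groups 1 to 3 and 2.41 to 3.14% in groups 4 to 6. The median total was 2442200 to 3147000 counts per cell in groups 1 to 3 and 3972690 to 4290790 in groups 4 to 6. Their part in the Malat1 levels was not tested. Across the 109 cells, Pearson's r between Malat1 and the mitochondrial share was 0.34 (Spearman's rho 0.26), over cells that share library groups.

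**Figure D2:**
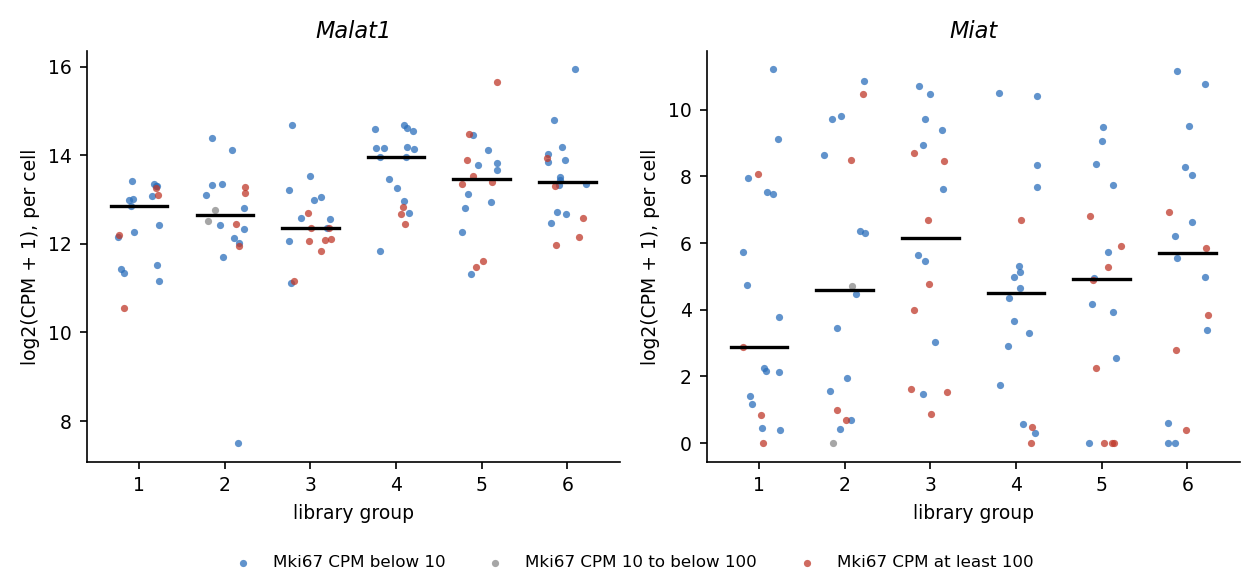
Malat1 (left) and Miat (right) in each cell, as log2(CPM + 1) on the vertical axis, by library group on the horizontal axis; points are cells coloured by Mki67 class and bars are medians over the cells of a group. The Malat1 medians of groups 4 to 6 (10871 to 15913 CPM) lie above those of groups 1 to 3 (5244 to 7451 CPM), while the cells of every group spread in Miat from below 1 CPM to at least 706 CPM.

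In summed counts, Malat1 was lower in Mki67-high than in Mki67-low cells in 5 of 6 library groups, but not beyond the spread between them. Its median per cell was 5862 CPM in the 32 Mki67-high cells (1507 to 51640) and 9576 CPM in the 75 Mki67-low cells (179.8 to 63014). Within library groups the median per cell was lower in the Mki67-high class in 4 and higher in 2. Summed over the cells of a class, library groups 1 to 6 had 6718, 7619, 4093, 6486, 13303 and 7356 CPM in the Mki67-high class and 6748, 8523, 7721, 15358, 11045 and 15969 CPM in the Mki67-low class. Group 5 went the other way, and in group 1 the values were nearly equal. The means were 7596 ± 3063 against 10894 ± 3964 CPM (SD, n = 6), a log2 fold change of -0.58 (SE 0.29) with an adjusted p of 0.688 in edgeR's quasi-likelihood test. For comparison, 15.3% of all 9085 genes tested were lower in at least 5 of 6 library groups. The 8 cells with GABAergic markers, all Mki67-low, had a median of 17291 CPM of Malat1 against 7900 CPM in the other 101 cells, and without them the log2 fold change was -0.44 (SE 0.31, edgeR adjusted p = 0.808).

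Between the Rbfox3 classes the Malat1 values crossed. Library groups 1 to 6 had 7184, 5825, 7216, 13362, 13502 and 13720 CPM in Rbfox3-high sums and 5230, 13591, 6991, 16777, 7075 and 17740 CPM in Rbfox3-low sums. The class was higher in 3 groups and lower in 3. The means of 10135 ± 3753 and 11234 ± 5476 CPM gave a log2 fold change of -0.22 (SE 0.33, edgeR adjusted p = 0.997).

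Miat spread widely among cells. Of 109 cells, 9 held no count, 17 held 1 to 5, 28 held 6 to 99 and 55 held at least 100. The lower quartile was 2.11 CPM, the median 28.5, the upper quartile 248.6 and the highest cell 2358 CPM. Every library group contained cells from near 0 to at least 706 CPM, and group medians ran from 6.41 to 75.7 CPM. The 2 highest cells, in library groups 1 and 6, were at 2358 and 2288 CPM. Both were Mki67-low and Rbfox3-low and held 4967 and 5232 CPM of Dcx, the microtubule protein of young migrating neurons, and the first also held 1650 CPM of Gad1. Across cells, Miat went with Dcx at r = 0.33 (rho 0.29) and with Rbfox3 at r = 0.16 (rho 0.16), both given as descriptions.

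In summed counts, Mki67-high cells held less Miat than Mki67-low cells in 5 of 6 library groups, but not past the threshold of an adjusted p under 0.01. Of all genes tested, 15.3% were lower in at least 5 of 6 library groups. The medians per cell were 9.94 and 38.4 CPM, with ranges of 0 to 1423 and 0 to 2358 CPM. In sums, library groups 1 to 6 had 64.1, 334.5, 110.0, 35.7, 26.2 and 53.0 CPM in the Mki67-high class and 167.8, 287.1, 584.5, 200.5, 173.8 and 366.7 CPM in the Mki67-low class. Only in group 2 was the Mki67-high sum the larger, and there 1 cell of the class reached 1423 CPM. The means of 104 ± 117 and 297 ± 160 CPM (n = 6) gave a log2 fold change of -1.63 (SE 0.81) with an adjusted p of 0.690 in edgeR. When log2(CPM + 1) was averaged over cells in place of summing counts, the difference was -1.87 (SE 0.77) with a limma adjusted p of 0.203.

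The share of cells with a Miat count was 27 of 32 (84.4%, 68.2 to 93.1) in the Mki67-high and 72 of 75 (96.0%, 88.9 to 98.6) in the Mki67-low class, with overlapping intervals. After thinning each cell to 1000000 counts it was 71.9% and 89.3%. The Mki67-high cells were the deeper ones, with a median of 4157700 counts against 3580460.

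Among Mki67-low cells, all 32 Rbfox3-high cells held Miat (89.3 to 100%), and 29 of the 31 Rbfox3-low cells did (79.3 to 98.2%), with overlapping intervals. Thinned to 1000000 counts, the shares were 100% and 80.6%. The median per cell was 47.2 CPM in the former and 9.89 CPM in the latter. The sums did not follow in each library group: groups 1 to 6 had 97.4, 154.7, 1032, 104.6, 94.3 and 546.9 CPM in Rbfox3-high and 266.1, 190.1, 179.5, 7.91, 302.3 and 319.2 CPM in Rbfox3-low cells. Of the 6 groups, 3 were higher and 3 lower, with a log2 fold change of 0.75 (SE 1.04, edgeR adjusted p = 0.997), and without library group 3 it was -0.17 (SE 1.19). Averaged over cells as log2(CPM + 1), the difference was 1.48 (SE 0.98, limma adjusted p = 0.945).

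Meg3, the first noncoding RNA of the imprinted domain, was high in a small number of Mki67-low cells. It stood at 0 in 63 cells, at 1 to 5 counts in 20, at 6 to 99 in 12 and at 100 counts or more in 14. The 9 cells that reached 100 CPM were all among the 75 Mki67-low cells (12%). None of the 32 Mki67-high cells did, which allows a share of up to 9.38%, and the highest of them was at 96.1 CPM. The share of cells with any Meg3 count, in contrast, was near equal: 14 of 32 (43.8%, 28.2 to 60.7) against 31 of 75 (41.3%, 30.9 to 52.6), or 31.3% and 33.3% after thinning to 1000000 counts.

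Summed per class, Meg3 was lower in the Mki67-high class in all 6 library groups. Groups 1 to 6 had 1.5, 26.8, 12.4, 0, 0.383 and 13.8 CPM in the Mki67-high class and 37.7, 326.6, 89.4, 26.9, 199.9 and 193.3 CPM in the Mki67-low class. Over all genes tested, 3.20% were lower in 6 of 6 library groups. Across library groups the classes just failed to overlap, with 26.8 CPM as the highest Mki67-high and 26.9 CPM as the lowest Mki67-low sum. Single cells made up the larger Mki67-high sums: 246 of 251 counts in group 2 came from 1 cell, and 309 of 407 in group 3 and 336 of 337 in group 6 came from the 2 cells with 13533 and 12684 detected genes, both with astroglial markers. Each Mki67-low sum likewise came mostly from 1 cell. In groups 1 to 3 that cell held 1428 of 1625, 10939 of 11677 and 2618 of 2628 counts. In groups 4 to 6 it held 1400 of 1782, 7922 of 7967 and 10006 of 10140. The Mki67-low class also had more cells in every group, 10 to 15 against 3 to 8. The sums therefore do not show a shift across the cells of a class. Without cells of unusual depth the log2 fold change was -4.68 (SE 1.74, edgeR adjusted p = 0.484). The means were 9.13 ± 10.6 and 146 ± 116 CPM (n = 6), and the log2 fold change was -4.24 (SE 1.51) with an unadjusted p of 0.0123 and an adjusted p of 0.535 in edgeR, so that it did not pass the threshold (7.34% of all genes had an unadjusted p under 0.05). Averaged over cells as log2(CPM + 1), the difference was -0.59 (SE 0.56, limma adjusted p = 0.634).

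The 9 cells with the most Meg3 were of more than 1 kind. Of these, 4 carried GABAergic markers: the highest, at 2091 CPM in library group 6, held 2521 CPM of Gad1, the enzyme that makes GABA, and 109.9 CPM of Pax2, a factor of inhibitory interneuron precursors. The second, at 1886 CPM in group 2, held 471 CPM of Gad1 and 296 CPM of Pax2. The fourth, at 848 CPM in group 3, held 369 CPM of Gad1 and 324 CPM of Slc32a1, the vesicular GABA transporter, and the eighth, at 125 CPM in group 4, held 1393 CPM of Gad1.
The other 5, at 1430.1, 384, 338, 133 and 119 CPM, had no Gad1 count, and 708 to 9570 CPM of Neurod1, a factor of differentiating granule cells. Nor did all cells with GABAergic markers hold Meg3. Of the 8 such cells, all of them Mki67-low, 4 were at 100 CPM or more and the other 4 at 8.57 CPM or less, among them the cell with the most Gad1 (8205 CPM, Meg3 0.905 CPM). So 4 of 9 Meg3-rich cells (44.4%) carried these markers, and 4 of 8 marker-carrying cells (50%) were rich in Meg3.

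Sums over markers of other cell types differed between the Mki67 classes, in both directions. Summed over the 4 markers, library groups held 0 to 28.0 CPM in the Mki67-high and 36.1 to 803 CPM in the Mki67-low class, and all 4 had counts in both classes. The sums of astroglial (8), oligodendrocyte (6) and microglial (4) markers went the other way. Their medians over library groups were 972 against 446 CPM, 1096 against 495 CPM and 37.5 against 0.0221 CPM in the Mki67-high and Mki67-low classes. Their summed ranges overlapped, at 12.7 to 2633 and 53.2 to 3680 CPM, at 60.7 to 2216 and 227 to 1363 CPM, and at 0 to 90.2 and 0 to 0.634 CPM, and every one of these markers had counts in both classes. Gene by gene, the edgeR log2 fold change was above 0 for 3 astroglial markers and below 0 for 5, with a median of -0.045. It was above 0 for 4 oligodendrocyte markers and below 0 for 2. None of these was called, and no microglial marker passed the filter on low counts. The part of these cells in the Meg3 difference was not tested beyond leaving out those with GABAergic or astroglial markers. When the 8 cells with GABAergic markers were left out, a choice made after the values were seen, the log2 fold change of Meg3 was -2.63 (SE 1.77, edgeR adjusted p = 0.796), and without the 5 cells with astroglial markers it was -4.81 (SE 1.74, adjusted p = 0.446).

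**Figure D3:**
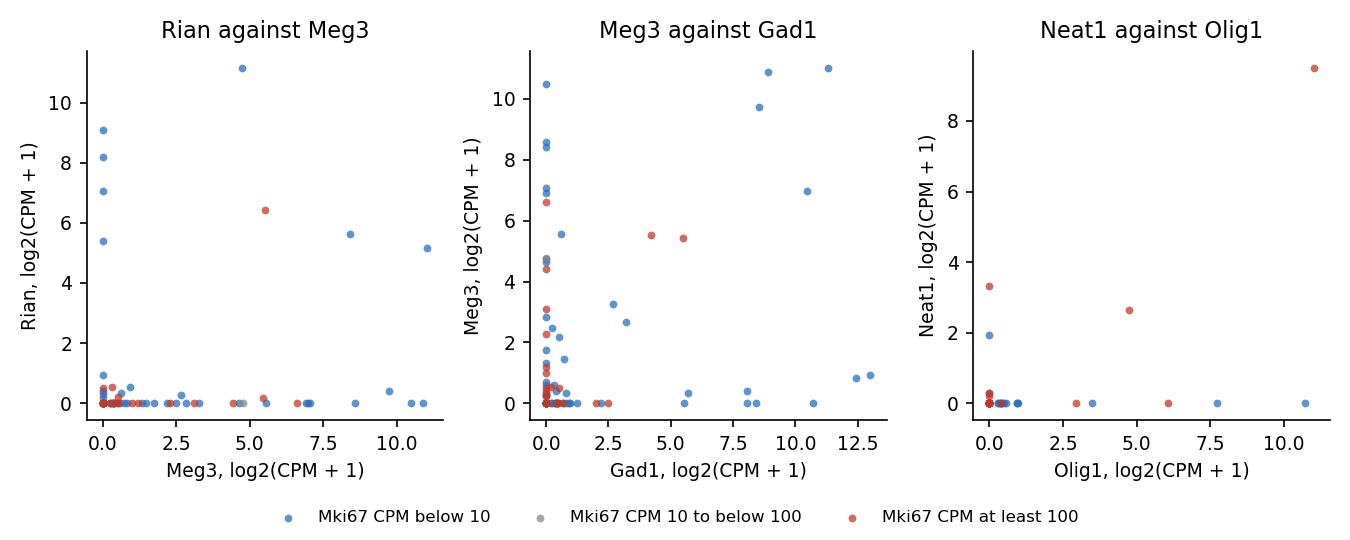
Cell by cell, as log2(CPM + 1) on both axes: Rian against Meg3 (left), Meg3 against Gad1 (middle) and Neat1 against Olig1 (right); every point is 1 of 109 cells, coloured by Mki67 class. No cell reaches 100 CPM of both Rian and Meg3, 4 of the 9 cells at 100 CPM or more of Meg3 also hold Gad1, and the single Neat1-rich cell (730.4 CPM) is also that with the most Olig1.

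Rbfox3 did not order Meg3. Of its 9 rich cells, 4 were Rbfox3-high, 3 were Rbfox3-low and 2 lay between. In library groups 1 to 6 the sums were 84.2, 12.6, 207.6, 0.0326, 323.6 and 6.51 CPM for Rbfox3-high and 5.59, 804.9, 0.768, 0.0628, 0 and 309.8 CPM for Rbfox3-low cells, so the class was higher in 3 groups and lower in 3. The log2 fold change was -0.95 (SE 1.99, edgeR adjusted p = 0.997). It was 1.28 (SE 2.28) without library group 2 and 2.29 (SE 2.19) without the 8 cells with GABAergic markers, of which 1 was Rbfox3-high and 6 were Rbfox3-low. Over all cells of a class, the 4 GABAergic markers summed to 0.0326 to 171 CPM by library group in Rbfox3-high and to 86.6 to 1645 CPM in Rbfox3-low cells.

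**Figure D4:**
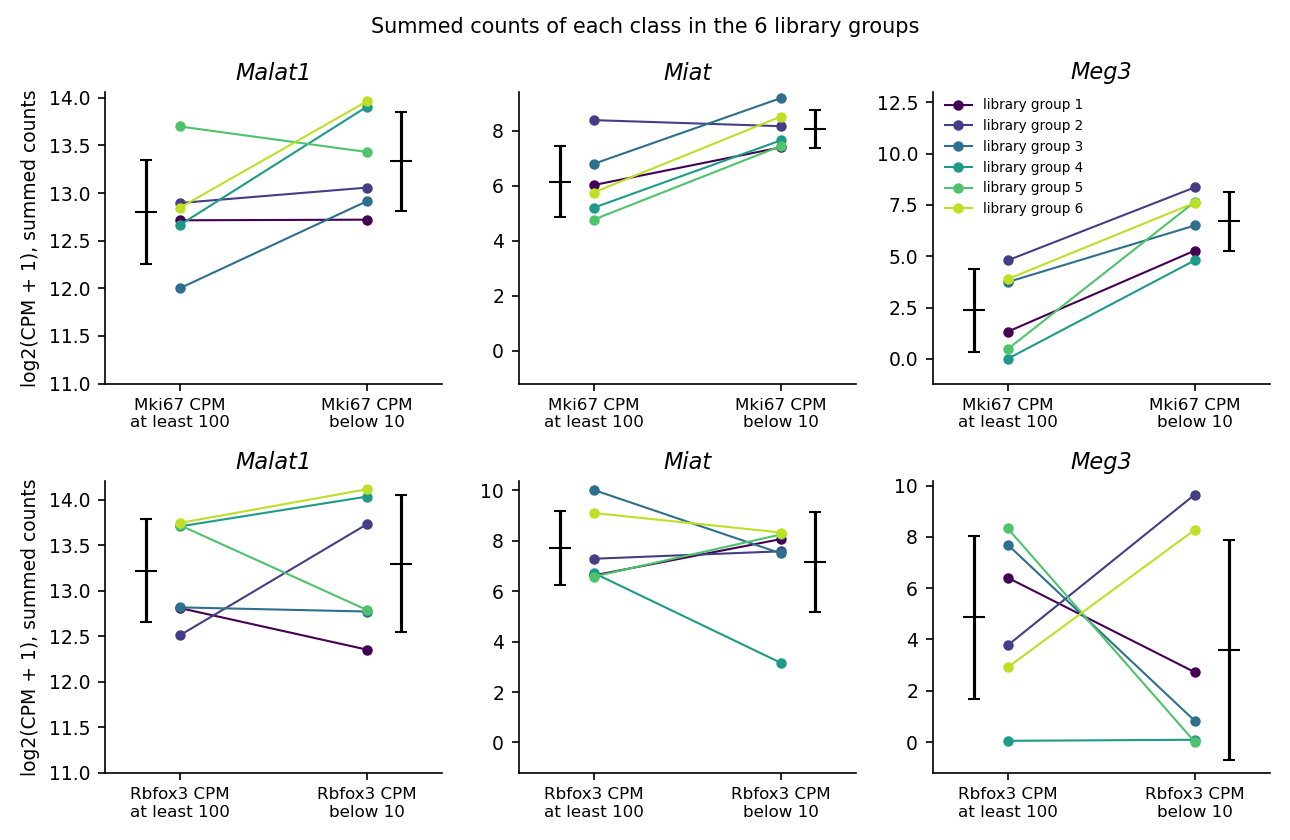
Summed counts of Malat1, Miat and Meg3 as log2(CPM + 1) on the vertical axis for the Mki67 classes (top) and, among Mki67-low cells, the Rbfox3 classes (bottom); each line joins the 2 classes of 1 library group, and the bars beside them are mean ± SD over 6 library groups on the same log scale. Meg3 rises from the Mki67-high to the Mki67-low class in 6 of 6 groups and Malat1 and Miat in 5 of 6 (none past the threshold), while the lines of the Rbfox3 comparison cross.

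The cells richest in Rian, the next RNA of the domain, were not those richest in Meg3. Rian held at least 100 counts in 8 cells, 1 or 2 counts in 12 and none in 89, with no cell in between, and 71.0% of its 13259 counts came from 1 cell of library group 6 (2298 CPM). The next cells were at 546, 289 and 132 CPM, in library groups 3, 6 and 4. None of these 4 cells with at least 100 CPM was among the 9 with at least 100 CPM of Meg3. Of these 4 cells, 3 were Rbfox3-high, at 385, 2555 and 455 CPM of Rbfox3. All 4 were among the 75 Mki67-low cells. None of the 32 Mki67-high cells reached 100 CPM, which allows a share of up to 9.38%, so these counts do not separate the classes. At least 5 counts of both RNAs were seen in 4 cells, which were 15.4% of the 26 such cells of Meg3 and 50% of the 8 of Rian. Counting any read, 11 cells held both, or 23.9% of the 46 with Meg3 and 55.0% of the 20 with Rian. Over 109 cells r was 0.19 (rho 0.15), and the 2 RNAs share the depth of each cell.

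Rian was too rare to pass edgeR's filter on low counts in either comparison. Its sum was lower in the Mki67-high class in 5 library groups and 0 in both classes in library group 2. For comparison, 15.3% of the genes tested, which leave out Rian, were lower in at least 5 of 6 library groups. In group 5 the sums were 1 and 2 counts, and in group 6 a single cell held 9411 of the 10703 Mki67-low counts. The Mki67-low class also had more cells in every group, so these sums do not show a shift across the cells of a class. Of the 20 cells with Rian, 12 held no more than 2 counts, and 9 of these 12 lay in library groups 3 and 6, which also held the 2 richest cells.

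Mirg was found in 4 cells, all with Meg3 and 2 with Rian. A single Mki67-high cell of library group 2 held 315 of its 335 counts, or 123 CPM, together with 96.1 CPM of Meg3 and no Rian. A Meg3-rich cell of library group 3 held 18 counts (5.83 CPM) and the other 2 cells held 1 count each.

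The coding genes of the domain, expressed from the paternal chromosome, were rarer still. Dlk1, which encodes a Notch-related transmembrane protein, had 1 count in each of 3 cells. Rtl1, a retrotransposon-derived gene on the opposite strand between Meg3 and Rian, had 272 counts in 4 cells, 264 of them in 1 Rbfox3-low cell at 119.5 CPM that was not rich in Meg3. Dio3 was not analysed here.

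Neat1, the paraspeckle scaffold, was almost confined to 1 cell. It held 3119 of the 3217 counts (97.0%), at 730.4 CPM, and the next cells were at 8.92, 5.22 and 2.83 CPM. A further 3 cells held 1 count each, and 102 cells held none. The Neat1-rich cell, in library group 3, held 8132 CPM of Pdgfra, 2045 CPM of Olig1 and 2001 CPM of Sox10, all markers of oligodendrocyte precursors, with 399 CPM of Mki67, 5.15 CPM of Dcx and 0.468 CPM of Zic1, a granule lineage factor, but also 2011 CPM of Neurod1. Of the 13 cells with at least 2 of 6 oligodendrocyte markers at 50 CPM, only 1 besides it had a Neat1 count, namely the cell with 13533 detected genes (36 counts). By class, 5 of 32 Mki67-high cells (15.6%, 6.86 to 31.8) and 2 of 75 Mki67-low cells (2.67%, 0.734 to 9.21) had a count, or 12.5% and 1.33% after thinning to 1000000 counts, and the gene did not pass the filter in either comparison.

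Malat1 and Neat1 are neighbours on chromosome 19, yet the Neat1-rich cell held 4347 CPM of Malat1, under the median of all cells. As background, Neat1 has a short, polyadenylated form and a long form that paraspeckles need, and these counts do not tell them apart.

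Snhg11 was at the edge of detection. It had 9 counts in all, 3 of them in the cell with 13533 detected genes and 1 in each of 6 other cells, and no cell exceeded 0.435 CPM. These 7 cells were spread over 5 of the 6 library groups and over both Mki67 classes (3 of 32 and 3 of 75 cells, and 1 between them). No difference was detectable at this depth.

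Set against all genes, none of the members was called in either comparison. At an adjusted p under 0.01, edgeR called 3 of 9085 genes (0.033%) between the Mki67 classes, Mki67 itself among them, and 0 of 5908 (0%) between the Rbfox3 classes, where 265 (4.49%) had an unadjusted p under 0.05, limma called 1 (0.0169%) and DESeq2 450. Only Meg3, Malat1 and Miat had enough counts to be tested. Their median log2 fold change was -1.63 for Mki67 and -0.22 for Rbfox3, beside -0.18 and -0.10 over all genes tested. In sums simulated with the depth and spread seen here, only genes above the median mean level were changed. The Mki67 fit of edgeR called 44% of genes changed by 6 on the log2 scale and 1% of those changed by 3. In that setting this fit called few changes that were not very large. Sums made up by single cells, as those of Meg3 were, were not simulated.

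Genes that work with these RNAs were looked at as lists. Of the 14 paraspeckle proteins, all tested between the Mki67 classes, none was called, and their median log2 fold change was 0.50, with 11 above and 3 below 0. None of the 14 nuclear speckle proteins was called, with a median of 0.14, and none of 5 tested of 7 listed partners of Miat, with a median of -0.53. Between the Rbfox3 classes 12, 14 and 5 of them were tested, none was called, and the medians were -0.51, -0.32 and 0.09. Of the 10 genes listed for the Dlk1-Dio3 region, 3 were tested for Mki67 and 2 for Rbfox3, and none was called.
None of 19 snoRNA host genes (5 and 4 tested), 28 other neural or nuclear long noncoding RNAs (8 and 3 tested) or 23 imprinted coding genes (14 and 12 tested) was called in edgeR. In limma, which called 81 of 9085 genes (0.892%) between the Mki67 classes, 1 gene of these lists passed. Dleu2, a long noncoding RNA that hosts the microRNAs miR-15a and miR-16-1, was at 236 ± 73.0 CPM in the Mki67-high and 33.5 ± 34.7 CPM in the Mki67-low sums and higher in 6 of 6 library groups, with a limma difference of 3.64 (SE 0.80, adjusted p = 0.00478) and an edgeR log2 fold change of 2.68 (SE 0.98, adjusted p = 0.559). Genes higher in 6 of 6 library groups were 2.20% of all.

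The genes most like each member over the 109 cells were weakly so. Among 8641 other genes with a count in at least 20 cells, Meg3 was nearest to Shank1, which encodes a postsynaptic scaffold protein (Pearson's r 0.49, rho 0.42), to the telomere gene Pot1b (0.48, 0.31) and to Zfp2 (0.47, 0.31). Miat was nearest to Kif5a, a kinesin of neurons (0.40, 0.35), Zfyve9 (0.36, 0.31) and AC114820.1 (0.35, 0.26). For Malat1 they were AC107641.1 (0.42, 0.53), Slc34a2 (0.40, 0.46) and Myl12b (0.37, 0.36), and for Rian Pank2 (0.45, 0.28), Zfp11 (0.45, 0.09) and Gm11652 (0.44, 0.18). The nearest genes of Mirg (Zbtb2, Cercam, Dcun1d3), Neat1 (Gm15542, Mfsd11, Gucy1b3) and Snhg11 (Tmem17, Tspan15, Casp4) reached r of 0.49 to 0.79, but these RNAs were in 4 to 7 cells and such values rest on 1 or 2 of them. The points share cell depth and library groups. Among the members themselves, the highest correlation was that of Meg3 and Mirg (r 0.29), followed by Meg3 and Rian (0.19), and Malat1 and Miat had 0.13.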

How the data were processed

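Single-cell RNA-seq of 109 cells was used. Per the labels, the authors aligned reads to mm10 with STAR 2.4.1d and counted them per gene with HTSeq 0.6.1, and they deposited raw counts, not normalized. The annotation and strand setting are not given in the sources used here. Total counts of 15071 to 8616017 per cell set the precision. Every cell was kept, and doublets were not called. CPM is 1e+06 times the count over the column total.

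For tests, each class was added up to 1 column of counts per library group (9376998 to 66286508 counts per Mki67 sum), filtered with filterByExpr, normalized by TMM and compared with the quasi-likelihood test of edgeR 4.0.16 in R 4.3.3, with Benjamini-Hochberg adjustment over all genes tested. Since no label ties cells to animals, p-values measure only the spread between library groups. limma 3.58.1 and DESeq2 1.42.0 were alternatives, with other scalings, filters, classes, a library group block and each library group left out. The edgeR fit was tested on simulated sums. limma was tested on log2(CPM + 1) of those sums and not on means over cells, and DESeq2 was not tested in this way. Named are the 7 members, for each the 3 genes with the highest r, and genes of the lists past a threshold; the other genes were named after their values were seen. The members and lists were chosen with earlier results of these data known.

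Sequences were read from GENCODE vM21 transcripts (GRCm38) and from RefSeq (GRCm38.p6). Shares carry 95% Wilson intervals over cells taken as independent, and a count of 0 is given the share that 3 would allow.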

Additional observations from a re-analysis of the deposited data

Results flagged for a closer look

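In 19 sets of 6 library group values, 4 held a value far from the other 5 (a gap beyond Dixon's 95% critical value). That critical value is made for normal values, while these sets share cells and some hold sums of 0. The number of flags was therefore not set against a chance rate. Rian summed over all cells was 139 CPM in library group 6 and at most 28.6 CPM elsewhere. Mirg was 6.39 CPM in library group 2 and at most 0.321 CPM elsewhere. Neat1 was 50.7 CPM in library group 3 and at most 0.540 CPM elsewhere. In each of these, 1 cell held 71.0%, 94.0% and 97.0% of all counts of the gene. Miat in the Mki67-high class was 335 CPM in library group 2, next to 110 CPM in library group 3, and 1 of its 4 cells was at 1423 CPM.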

How the results depend on the processing

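No member passed the threshold under any alternative (57 values for Mki67, lowest adjusted p 0.026 for Meg3 in DESeq2, and 57 for Rbfox3, lowest 0.239). Of the 57 for Mki67, 1 changed sign: Meg3 was 3.85 when classes were cells with at least 1 Mki67 count against none. With those classes Miat was near 0, at -0.12 (SE 1.24), and Malat1 was -1.17 (SE 0.36). Leaving out each library group gave -4.62 to -3.84 for Meg3, -0.76 to -0.37 for Malat1 and -2.45 to -1.18 for Miat, with 2 to 3 genes called. For Rbfox3, 13 changed sign. Meg3 was 1.88 with the library group as a replicate block, 0.06, 0.08 and 0.06 in limma with pseudocounts of 1 and 10 and with a block, 7.07 with count classes and 2.29 without cells carrying GABAergic markers (this and the limma block were chosen after seeing the data). Malat1 was 0.03 in each of these limma fits and 0.88 with count classes. Leaving out each library group gave -1.88 to 1.28 for Meg3, -0.39 to 0.05 for Malat1 and -0.17 to 1.14 for Miat, with 0 genes called. The cause was not tested.

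The 3 genes called for Mki67 became 7 at a threshold of 0.05, 377 in DESeq2, 81 in limma and 47 with a pseudocount of 10, 7 with size factors (RLE), 0 with count classes, 1 with the block, and 153 in limma with the block. For Rbfox3, 0 became 450 in DESeq2 and 1 in limma with either pseudocount or with the block. Deviations within a library group correlated at most at 0.056, under the 0.1 set for treating the library groups as pairs.

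Requiring 5 counts lowered the share of cells with Meg3 to 23.9%, Rian to 7.34%, Miat to 77.1% and Snhg11 to 0%. Thinning to 1000000 counts gave 33.3% for Meg3 and 84.3% for Miat. The median over cells stayed between 7900 and 9044 CPM for Malat1 and between 25.2 and 30.8 CPM for Miat when each library group was left out.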

Other observations

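Mir369, the only microRNA gene inside Meg3, Rian or Mirg that the table lists, had 80 counts in 43 cells, with at most 7 in a cell. Its host Mirg had counts in 4 cells, and 1 cell held both.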
